A study of Mus musculus with 16 samples.

Results

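Livers of mice that received both a fast food meal and antibiotic drinking water were compared with livers of mice that received neither. The comparison used 8 of the 16 libraries of the series, 4 from each group, and asked which transcripts differed from baseline when both exposures were present. The baseline group, called chow control here, had control drinking water and a slurry of chow, and the group with both exposures, called fast food antibiotic, had antibiotic drinking water and a slurry of fast food. Each slurry was given once by oral gavage to C57BL/6 mice, an inbred laboratory strain, and the liver was taken 4 h later. The other 8 libraries, from fast food with control water (fast food control) and chow with antibiotic water (chow antibiotic), entered the model and are given beside the results where the exposures are set side by side. The antibiotics, their dose and duration, the composition of the slurries and the age and sex of the mice are not stated in the sources read here. Replicates are numbered within each group, and nothing in the labels ties a number to its own mouse. Should numbers share a mouse, the p-values reflect only how far these libraries vary, which may be technical. Of 25006 genes in the table, 13180 had enough counts to be tested.

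Total counts of the 8 libraries ran from 8954378 (chow control 1) to 18725630 (chow control 4). Reads resembling ribosomal RNA (rRNA-like) fell into 4 features, whose part of all counts was 8.42%, 2.45%, 0.228% and 0.12% in chow control 1 to 4 and 6.17%, 2.71%, 0.587% and 8.23% in fast food antibiotic 1 to 4. Fast food antibiotic 2 stood apart from its group. On the first principal component, which held 38.8% of the variance, it lay at 45.4, among the chow antibiotic libraries (36.5 to 74.1), whereas fast food antibiotic 1, 3 and 4 lay between -16.1 and -10.0 and chow control between -33.4 and -2.44. It also held the most acute phase transcripts. All levels here are in CPM, counts scaled to each library's total after adjustment by its TMM normalisation factor. Summed over 25 acute phase genes, fast food antibiotic 2 held 99309 CPM, against 25558 to 30616 CPM in the other 3 libraries of its group. Chow control libraries held 33317 to 58910 CPM. The comparison of the 2 groups is therefore described with and without fast food antibiotic 2. The interaction of meal and water, given later, was fitted only with it. Markers of hepatocytes had counts in all 8 libraries. Of 14 hepatocyte, 12 endothelial and 13 stellate cell genes tested, edgeR called 0 in each list, DESeq2 called 1 in each, and 4, 3 and 1 had an unadjusted p under 0.05.

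The liver receives the blood that drains the gut, and within hours of a meal it shifts between burning fatty acids, storing them and making sterols. Gut bacteria reshape bile acids, release small molecules, and shed products that resident macrophages of the liver sinusoids, the Kupffer cells, take up. Antibiotics remove many of these bacteria, and both antibiotics and diet can also act on drug-metabolising enzymes.

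Both exposures together left 1018 genes different from chow control (edgeR's quasi-likelihood test, adjusted p under 0.05), which is 7.72% of those tested. Of these, 527 were higher (4.00% of all genes tested) and 491 were lower (3.73%), and 241 changed at least 2-fold (107 up, 134 down). The 4 libraries of each group did not overlap at 867 of the 1018, and at 1889 of all genes tested (14.3%). The count was 704 without fast food antibiotic 2, of which 568 were among the 1018. The count rested on some libraries more than others. It was 263 without chow control 3, 388 without chow control 4, 580 without fast food antibiotic 4 and 1351 without chow control 2. The genes named by rule were 82, of which 64 were called and 25 of these kept their call whichever library was left out. For the rest, the text gives the library whose removal raised the adjusted p most, with that p, and the value without fast food antibiotic 2 where that missed too. Other removals could miss as well, and some genes kept their call in only 2 or 3 of the 8 fits that left out a library.

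**Figure D1:**
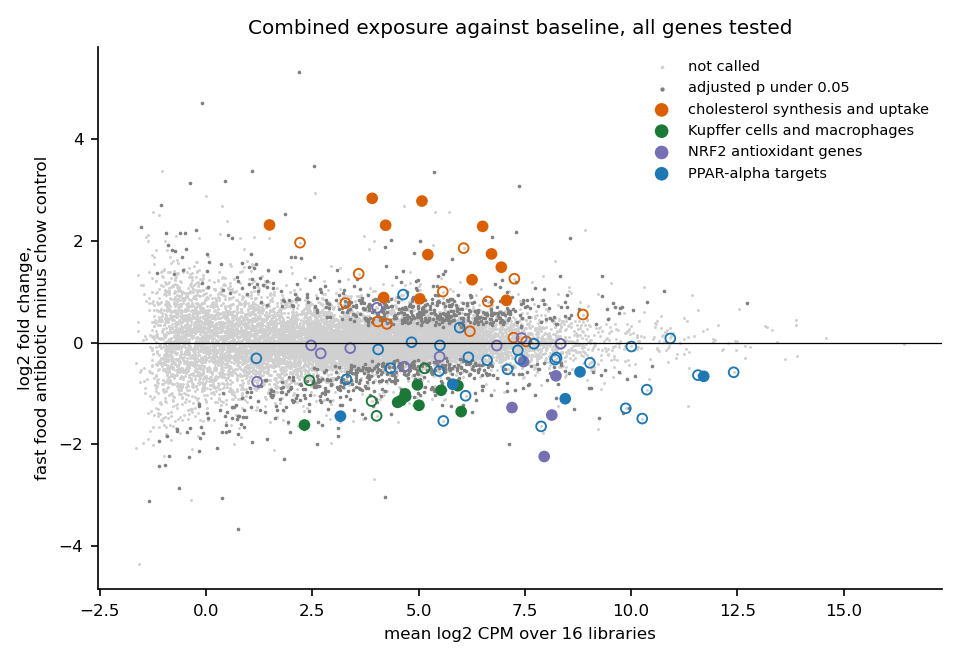
Log2 fold change (fast food antibiotic minus chow control, vertical axis) against mean log2 CPM over 16 libraries for each of the 13180 genes tested, with members of 4 gene lists coloured and filled where the adjusted p is under 0.05. Called members of the cholesterol list lie above 0 and those of the Kupffer cell, NRF2 and PPAR-alpha lists below it.

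Many genes of cholesterol synthesis and uptake rose with both exposures. The pathway is switched on by the transcription factor SREBP2 when sterols in the endoplasmic reticulum run low, and it raises the enzymes that build cholesterol from acetyl-CoA as well as genes of its uptake. Of 25 listed genes, all of them tested, 12 were called higher and 0 lower, against 4.00% of all genes called higher. All 25 had a positive log2 fold change, with a median of 1.24 against 0.0029 for all genes. Their groups were without overlap at 4 of 25, close to the share of all genes. Without fast food antibiotic 2 the median was 0.77 and 3 members were called, Lss and Dhcr7 among them. The count was also 3 without chow control 3 or chow control 4, with medians of 1.23 and 1.21.

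Lss, which closes the sterol ring, measured 16.96, 17.99, 16.5 and 16.3 CPM in chow control 1 to 4 and 29.8, 104, 53.8 and 36.7 CPM in fast food antibiotic 1 to 4. The groups did not overlap, and fast food antibiotic 2 was the highest. The log2 fold change was 1.73 ± 0.33 (SE, edgeR adjusted p = 0.00922), and 1.25 ± 0.22 without that library (edgeR adjusted p = 0.00784). Dhcr7, the last step of cholesterol synthesis, was more even, at 10.2, 13.8, 10.7 and 13.4 CPM in chow control and 20.3, 24.9, 23.8 and 20.2 CPM in fast food antibiotic, with a fold change on the log2 scale of 0.89 ± 0.18 (edgeR adjusted p = 0.00922). Lss and Dhcr7 kept their call whichever of the 8 libraries was left out.

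Stard4, a sterol carrier, was called (1.24 ± 0.30, edgeR adjusted p = 0.0231) with 36.5 CPM in fast food antibiotic 1, no higher than the controls (36.8 to 48.9), and 85.6 to 138 in the other 3. It was not called without fast food antibiotic 2 (edgeR adjusted p = 0.0615) or chow control 4 (0.0707).

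A wider range appeared in Sqle, a member chosen for description after its values were seen. Sqle, which makes squalene epoxide, was 7.51, 21.8, 10.3 and 11.9 CPM in chow control and 12.2, 246, 68.4 and 29.8 CPM in fast food antibiotic, with a log2 fold change at 2.78 ± 0.77 (edgeR adjusted p = 0.0457) and at 1.52 without fast food antibiotic 2 (edgeR adjusted p = 0.136). In Lss and Sqle the order within the group was the same, with library 2 highest, then 3, then 4, then 1. The 2 lowest were those with the highest rRNA-like shares of the group. The list's median was 1.16 among libraries with a high rRNA-like share and 1.16 among those with a low share. The first set holds fast food antibiotic 2, and the second has fast food antibiotic 3 as its only exposed library. The part of the share in these values was not tested further.

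The promoters of 4 called members are shown because the list shares a short motif there. CCAAT is the box bound by the factor NF-Y, which stands beside sterol response elements in many promoters of this pathway. The 250 bases before the annotated start (RefSeq, build GRCm38.p6) were searched for CCAAT on both strands. It was present in 16 of the 17 listed genes that had an entry (94.1%, the exception being Acat2), including 6 of 6 called ones, against 37.5% of 27025 genes. A match describes these letters and is not evidence of binding. The sequences are given 5′ to 3′ on the strand of the gene, with each match in capitals (ATTGG is CCAAT on the other strand). They lie at chr10:76531355-76531604 (+) for Lss, chr13:8885356-8885605 (+) for Idi1, an isomerase of the mevalonate pathway, chr8:64733579-64733828 (-) for Msmo1, a sterol demethylase, and chr5:28071162-28071411 (+) for Insig1, which holds SREBP2's escort protein in the endoplasmic reticulum.
Lss: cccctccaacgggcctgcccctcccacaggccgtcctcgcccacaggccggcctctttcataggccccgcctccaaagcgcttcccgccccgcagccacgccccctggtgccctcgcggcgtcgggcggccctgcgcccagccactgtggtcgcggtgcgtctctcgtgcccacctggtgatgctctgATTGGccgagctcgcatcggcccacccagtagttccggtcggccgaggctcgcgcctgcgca
Idi1: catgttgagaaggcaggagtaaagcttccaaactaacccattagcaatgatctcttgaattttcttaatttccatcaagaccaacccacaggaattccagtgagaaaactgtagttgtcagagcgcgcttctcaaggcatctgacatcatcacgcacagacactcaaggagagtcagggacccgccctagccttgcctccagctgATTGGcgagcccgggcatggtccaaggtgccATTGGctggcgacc
Msmo1: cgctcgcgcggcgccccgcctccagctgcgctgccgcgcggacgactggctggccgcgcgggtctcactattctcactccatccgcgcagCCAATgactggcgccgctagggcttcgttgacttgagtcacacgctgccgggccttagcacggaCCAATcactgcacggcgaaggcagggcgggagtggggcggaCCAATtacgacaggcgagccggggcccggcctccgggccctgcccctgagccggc
Insig1: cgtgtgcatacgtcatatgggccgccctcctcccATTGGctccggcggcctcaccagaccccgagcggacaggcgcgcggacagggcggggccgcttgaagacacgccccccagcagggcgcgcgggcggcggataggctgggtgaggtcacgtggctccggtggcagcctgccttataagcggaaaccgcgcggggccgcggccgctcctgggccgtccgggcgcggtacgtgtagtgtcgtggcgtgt
Lss and Insig1 had 1 match each, Idi1 had 2 and Msmo1 had 3. Insig1 measured 49.5, 49.8, 65.4 and 70.0 CPM in chow control and 65.6, 293, 196 and 102 CPM in fast food antibiotic (1.48 ± 0.38, edgeR adjusted p = 0.0314). Msmo1 (2.29 ± 0.65) and Idi1 (2.31 ± 0.67) both passed narrowly, each with an edgeR adjusted p of 0.049, and their groups overlapped. Without fast food antibiotic 2 the adjusted p was 0.0816 for Insig1, 0.136 for Msmo1 and 0.145 for Idi1, with log2 fold changes of 1.04, 1.56 and 1.24.

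**Figure D2:**
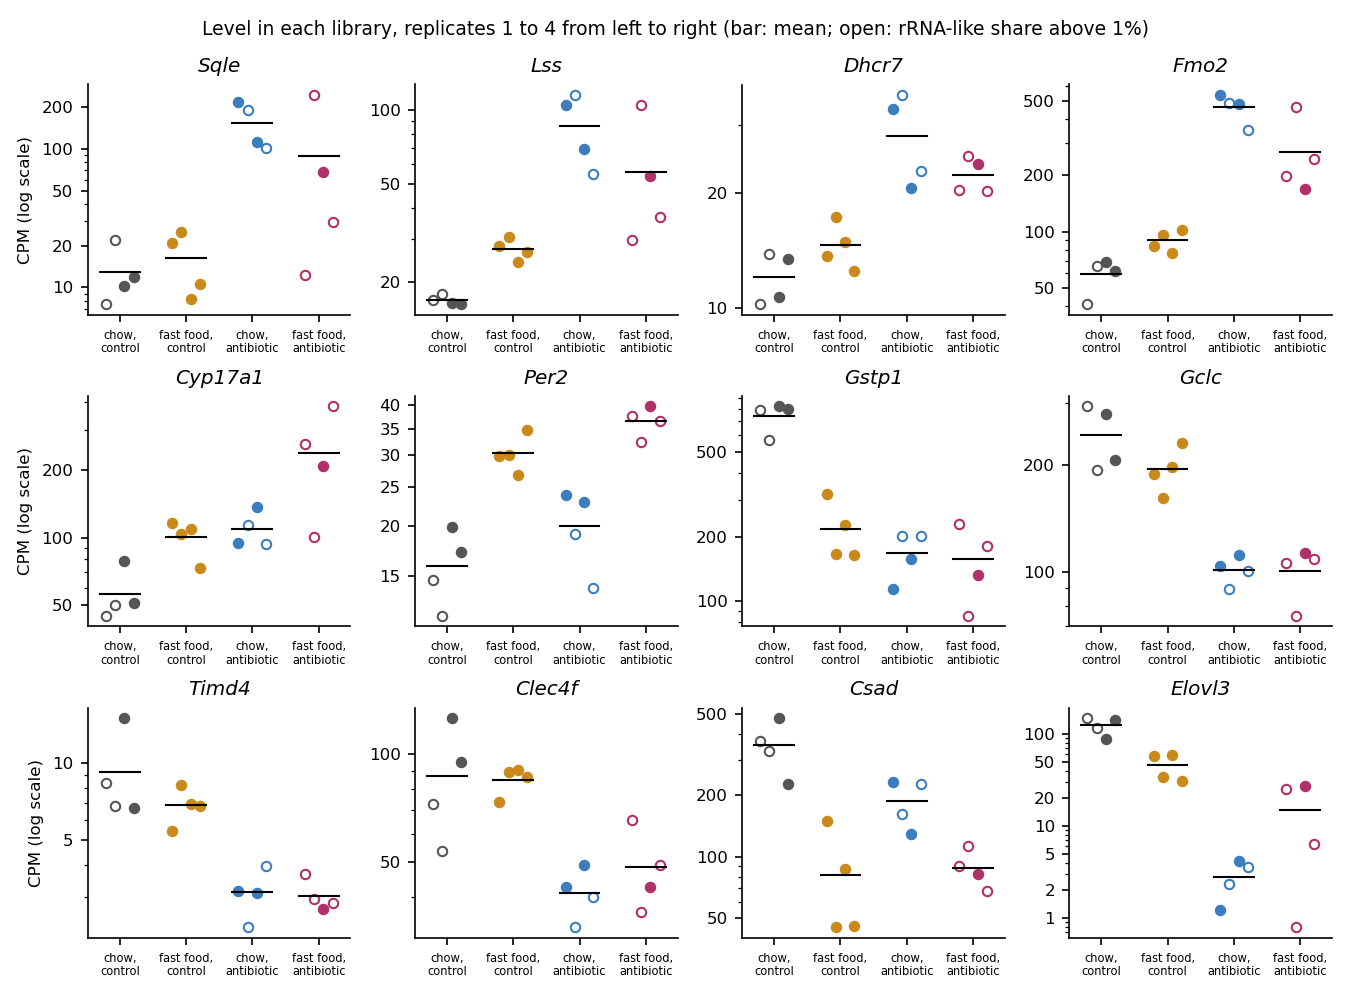
CPM of 12 genes in each of the 16 libraries (log axis, replicates 1 to 4 from left to right, bar at the group mean, open symbols for libraries with an rRNA-like share above 1%). Fast food antibiotic 2 lies at 246 CPM for Sqle and 0.790 CPM for Elovl3, whereas the 4 libraries of that group lie close together for Per2 (32.4 to 39.8 CPM).

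Transcripts of Kupffer cells were lower after both exposures. Of 14 markers tested, 10 were called lower and 0 higher, against 3.73% of all genes called lower, and all 14 had negative log2 fold changes with a median of -1.10. In bulk tissue, fewer cells of a type and less RNA per cell cannot be told apart. Summed over the 14 markers, chow control libraries held 420.0 to 1019 CPM and fast food antibiotic libraries 259 to 397 CPM, so the summed levels did not overlap.

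Timd4, a receptor for dying cells that marks long-lived resident Kupffer cells, was 8.37, 6.80, 15.02 and 6.69 CPM in chow control and 3.68, 2.94, 2.68 and 2.83 CPM in fast food antibiotic. All 4 exposed libraries lay below the lowest control. The log2 fold change was -1.62 ± 0.25 (edgeR adjusted p = 0.00305) and -1.61 without fast food antibiotic 2. Lyz2, the lysozyme of macrophages, fell from 36.5, 33.5, 87.8 and 44.9 CPM to 27.5, 22.8, 20.8 and 15.7 CPM (-1.23 ± 0.26, edgeR adjusted p = 0.0125). Vsig4, a complement receptor of Kupffer cells, fell from 24.5, 22.5, 56.0 and 34.6 CPM to 20, 14.9, 12.6 and 13.96 CPM (-1.17 ± 0.26, edgeR adjusted p = 0.0148). In both genes chow control 3 was highest and the groups did not overlap.

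Fcna, a lectin that activates complement, was also lower (-0.83 ± 0.19, edgeR adjusted p = 0.0159), and so was the folate receptor gene Folr2, another macrophage transcript and one of the 10 largest falls. Folr2 measured 6.76, 5.70, 10.01 and 9.15 CPM in chow control and 2.09, 1.44, 3.04 and 2.73 CPM in fast food antibiotic (-1.76 ± 0.28, edgeR adjusted p = 0.00305). The remaining called markers were C1qa, C1qb and C1qc, the chains of complement C1q, Cd5l, Clec4f and Csf1r, with log2 fold changes from -1.35 to -0.85. Timd4, Lyz2, Vsig4 and Folr2 kept their call whichever library was left out. Fcna kept it in 7 of 8 such fits and lost it without chow control 3 (edgeR adjusted p = 0.0634). Among the 14 markers, 6 were called lower without fast food antibiotic 2 (median -1.08) and 5 without chow control 3 (median -0.67). Adgre1 (-1.44), Cd68 (-0.74), Cd163 (-0.50) and Marco (-1.15) did not pass, with edgeR adjusted p from 0.056 to 0.273.

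The size of the Kupffer cell difference moved with the rRNA-like share of the libraries. The median of the list was -0.52 among libraries with a high share and -1.89 among those with a low share, where chow control 3 and 4 were set against fast food antibiotic 3 alone. Its part in the result was not tested further.

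Of the MHC class II genes, which present peptides to T cells, few passed the test. All 8 tested genes of the MHC class II list had negative log2 fold changes (median -1.29), and 2 were called, against 3.73% of all genes called lower. H2-DMa, which loads peptides onto class II molecules, was 1.18, 2.27, 5.21 and 2.09 CPM in chow control and 1.19, 0.502, 0.877 and 0.754 CPM in fast food antibiotic (-1.74 ± 0.45, edgeR adjusted p = 0.0283). Ctss, the protease that trims the invariant chain, was 32.9, 27.3, 76.5 and 41.6 CPM and 29.9, 18.2, 15.4 and 22.7 CPM (-1.06 ± 0.29, edgeR adjusted p = 0.0377). Both overlapped between the groups, and chow control 3 was the highest library in each. Without chow control 3 the edgeR adjusted p was 0.132 for H2-DMa and 0.126 for Ctss, and without fast food antibiotic 2 it was 0.0659 and 0.0969, so the list then held 0 calls. The class II list summed to 97.5 to 413 CPM in chow control and 41.8 to 122 CPM in fast food antibiotic.

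Ms4a1, which encodes the B cell antigen CD20, fell from 1.18, 0.618, 0.644 and 0.523 CPM to 0.0995, 0.0718, 0.0516 and 0.0943 CPM (-3.12 ± 0.57, edgeR adjusted p = 0.00622). The exposed libraries were near the limit of detection, so the size of the fold depends on the fitted prior. The call held without each library in turn, and DESeq2 gave it no adjusted p. Only 2 of the 8 listed B and plasma cell genes had enough counts to be tested, as did 4 of 12 T and NK cell genes and 5 of 9 neutrophil genes. Of the 4 T and NK cell genes 1 had an unadjusted p under 0.05 and of the 5 neutrophil genes 0, and neither edgeR nor DESeq2 called any of them.

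Interferon response genes had a median log2 fold change of -0.76 over 24 genes, 23 of them negative. Of these, 3 were called lower by edgeR and 9 by DESeq2, against 3.73% of all genes called lower by edgeR. Without fast food antibiotic 2, edgeR called 2 lower. Bst2, the antiviral membrane protein tetherin, was 47.5, 34.1, 76.1 and 47.9 CPM in chow control and 24.2, 22.1, 30.0 and 23.9 CPM in fast food antibiotic, without overlap (-1.04 ± 0.18, edgeR adjusted p = 0.00547). Irf7, a transcription factor that amplifies the interferon response, was 19.1, 19.6, 30.4 and 22.1 CPM and 12.4, 7.32, 12.6 and 12.5 CPM (-1.03 ± 0.22, edgeR adjusted p = 0.0125). Fast food antibiotic 2 was the lowest library for both. Bst2 kept its call whichever library was left out, and Irf7 missed it only without chow control 3 (edgeR adjusted p = 0.0518). Ifi27 (-0.97 ± 0.28, edgeR adjusted p = 0.0433) overlapped between groups and was not called without chow control 3 (0.149) or fast food antibiotic 2 (0.107).

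The promoter of Bst2 is shown because it holds the core letters of the interferon-stimulated element, to which STAT and IRF factors bind. A pair of GAAA runs with any 2 bases between them (both strands, 250 bases before the start) was present in 12 of the 19 interferon list genes with a RefSeq entry (63.2%) against 3.46% of 27025 genes, and in 1 of the 2 called ones with an entry. At chr8:71537473-71537722 (GRCm38.p6, minus strand) it occurs as 2 overlapping matches, in capitals.
Bst2: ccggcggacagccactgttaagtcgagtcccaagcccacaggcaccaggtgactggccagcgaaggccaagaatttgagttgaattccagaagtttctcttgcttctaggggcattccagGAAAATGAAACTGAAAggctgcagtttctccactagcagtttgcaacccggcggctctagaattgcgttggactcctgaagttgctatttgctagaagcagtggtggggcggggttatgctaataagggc
These letters describe the sequence, and binding was not measured.

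**Figure D3:**
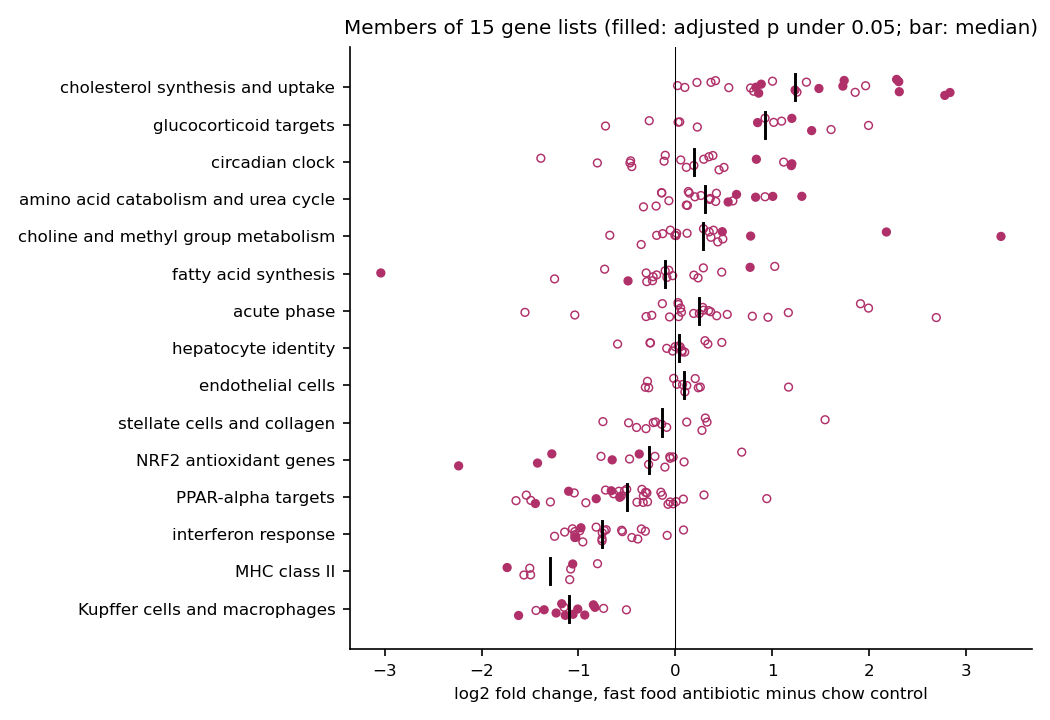
Log2 fold change (fast food antibiotic minus chow control) of each tested member of 15 gene lists, filled where the adjusted p is under 0.05, with a bar at the list's median. The cholesterol list lies wholly above 0 (median 1.24) and the Kupffer cell and MHC class II lists wholly below it (-1.10 and -1.29), while hepatocyte identity, endothelial and stellate cell lists straddle it.

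Of 15 tested genes of glutathione conjugation and other NRF2 targets, 5 fell and 0 rose, against 3.73% of all genes called lower, and the median was -0.27. NRF2 is the factor that raises detoxifying enzymes when electrophiles or oxidants reach the cell. Without fast food antibiotic 2, 5 of 16 were called lower. Summed over the list, fast food antibiotic libraries held 1571 to 1667 CPM and chow control libraries 2427 to 3335 CPM, without overlap. The sum weighs abundant called members most. Gstp1 averaged 743 CPM in chow control and 158 CPM in fast food antibiotic, and Ephx1 546 and 204 CPM. The 10 members that did not pass included the classical targets Nqo1 (-0.11), Txnrd1 (0.09) and Srxn1 (-0.27).

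Gstp1, the pi class glutathione transferase, was 789, 571, 819 and 794 CPM in chow control and 231, 85.4, 132 and 182 CPM in fast food antibiotic. It was one of the 10 largest falls, at -2.24 ± 0.29 (edgeR adjusted p = 0.00161), and the highest exposed library lay below the lowest control. Gclc, the catalytic subunit of the first enzyme of glutathione synthesis, fell from 293, 194, 279 and 207 CPM to 106, 74.9, 113 and 109 CPM (-1.27 ± 0.16, edgeR adjusted p = 0.000934). Its partner Gclm fell less, from 187 to 224 CPM in chow control to 140.1 to 177 CPM in fast food antibiotic (-0.37 ± 0.11, edgeR adjusted p = 0.0402).

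Ephx1, the microsomal epoxide hydrolase, fell from 585, 382, 711 and 506 CPM to 191, 196, 229 and 198 CPM (-1.42 ± 0.20, edgeR adjusted p = 0.00167). The exposed libraries were closer to each other than the controls were. Gstm1, a mu class transferase, fell from 453, 331, 531 and 410.4 CPM to 274, 284, 283 and 257 CPM (-0.65 ± 0.13, edgeR adjusted p = 0.00936). Gstp1, Gclc, Ephx1 and Gstm1 did not overlap between the groups and kept their call whichever library was left out. Glutathione transferases are near-identical copies of each other within a class, and reads shared between copies may have been split, so single members are uncertain.

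The glutathione system is joined to sulfur amino acids, and Csad, which makes taurine from cysteine, was the third of the largest falls. It measured 371, 330.0, 480.1 and 228 CPM in chow control and 90.0, 113, 82.0 and 67.6 CPM in fast food antibiotic (-2.0 ± 0.36, edgeR adjusted p = 0.00845). The groups did not overlap, and the value was -2.14 without fast food antibiotic 2. Among 10 taurine and sulfur amino acid genes, Csad was the 1 called lower and Got1 the 1 called higher. Of all genes, 3.73% were called lower and 4.00% higher.

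A minority of the targets of PPAR-alpha, the fasting lipid sensor of the liver that drives fatty acid oxidation, fell. Of 33 tested, 5 were called lower and 0 higher, against 3.73% of all genes called lower, 29 had a negative log2 fold change, and the median was -0.50. Fast food antibiotic 2 was the lowest library for all 3 genes described next, and without it 3 were called lower and the median was -0.30. Without chow control 3 or chow control 4, 2 were called lower. The list summed to 11480 CPM in fast food antibiotic 2 against at most 28304 CPM in its group. In chow control it summed to 30613 to 39299 CPM, so the summed levels did not overlap.

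Acot2, a mitochondrial acyl-CoA thioesterase, fell from 30.1, 23.4, 23.2 and 20.4 CPM to 9.75, 3.37, 12.1 and 10.3 CPM (-1.44 ± 0.32, edgeR adjusted p = 0.0172). Its call held whichever library was left out. Plin2, which coats lipid droplets, fell from 684, 887, 718 and 988 CPM to 515, 167, 446 and 401 CPM (-1.10 ± 0.28, edgeR adjusted p = 0.0294). Pex11a, a peroxisome proliferation factor, fell from between 74.3 and 100.2 CPM to between 29.4 and 68.8 CPM (-0.82 ± 0.22, edgeR adjusted p = 0.033). None of these 3 genes overlapped between groups. Plin2 was called in 5 and Pex11a in 3 of the 8 fits that left out a library, with highest edgeR adjusted p-values of 0.0856 (without chow control 4) and 0.102 (without chow control 3). Pex11a was at 0.0594 without fast food antibiotic 2.

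Several well-known members gave no call. Cpt1a, the gate for fatty acids into mitochondria, was 1171, 1251, 1204 and 1409 CPM in chow control and 1311, 739, 1397 and 1335 CPM in fast food antibiotic (-0.07 ± 0.20, edgeR adjusted p = 0.857). Fgf21, a hormone secreted by the fasted liver, was 4.19, 5.84, 7.98 and 6.85 CPM and 4.68, 0.861, 7.53 and 7.17 CPM (-0.31 ± 0.48, edgeR adjusted p = 0.739). In both genes 3 exposed libraries lay at or near control levels and fast food antibiotic 2 lay below all controls. Pdk4 (-0.72 ± 0.40, edgeR adjusted p = 0.285) and Cyp4a14 (-0.58 ± 0.35, edgeR adjusted p = 0.314) were not called either.

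Fatty acid synthesis genes went in both directions, with 1 called higher and 2 lower of 19, against 4.00% and 3.73% of all genes. Elovl3, which elongates saturated fatty acids, was 149, 117, 87.0 and 141 CPM in chow control and 25.3, 0.790, 27.2 and 6.32 CPM in fast food antibiotic. It had the largest fall under the naming rule, at -3.04 ± 0.69 (edgeR adjusted p = 0.0224), was -2.64 without fast food antibiotic 2, and was called in 5 of the 8 fits that left out a library (highest edgeR adjusted p = 0.0561 without chow control 4). Acacb, whose malonyl-CoA blocks fatty acid entry into mitochondria, rose from between 52.2 and 81.1 CPM to between 77.6 and 161 CPM (0.77 ± 0.20, edgeR adjusted p = 0.0273, and 0.0998 without chow control 3). Me1, malic enzyme, fell (-0.49 ± 0.14, edgeR adjusted p = 0.0465, with 0.135 without chow control 3 and 0.0883 without fast food antibiotic 2). Its call held in only 2 of the 8 fits that left out a library.

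The central genes of the pathway showed no call. Scd1, the stearoyl-CoA desaturase, was 1443, 1510.0, 985 and 4553 CPM in chow control and 1264, 94.97, 4470.0 and 1421 CPM in fast food antibiotic, so that each group held 1 library far above its others and the group with both exposures 1 far below (-0.23 ± 0.93, edgeR adjusted p = 0.914). Fasn, fatty acid synthase, was 172, 226, 188 and 257 CPM and 126, 448, 277 and 141 CPM (0.24 ± 0.34, edgeR adjusted p = 0.712), and Srebf1, the transcription factor of the pathway, was 33.1 to 52.7 CPM and 21.3 to 44.9 CPM (-0.19 ± 0.23, edgeR adjusted p = 0.657). All 3 overlapped between the groups.

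**Figure D4:**
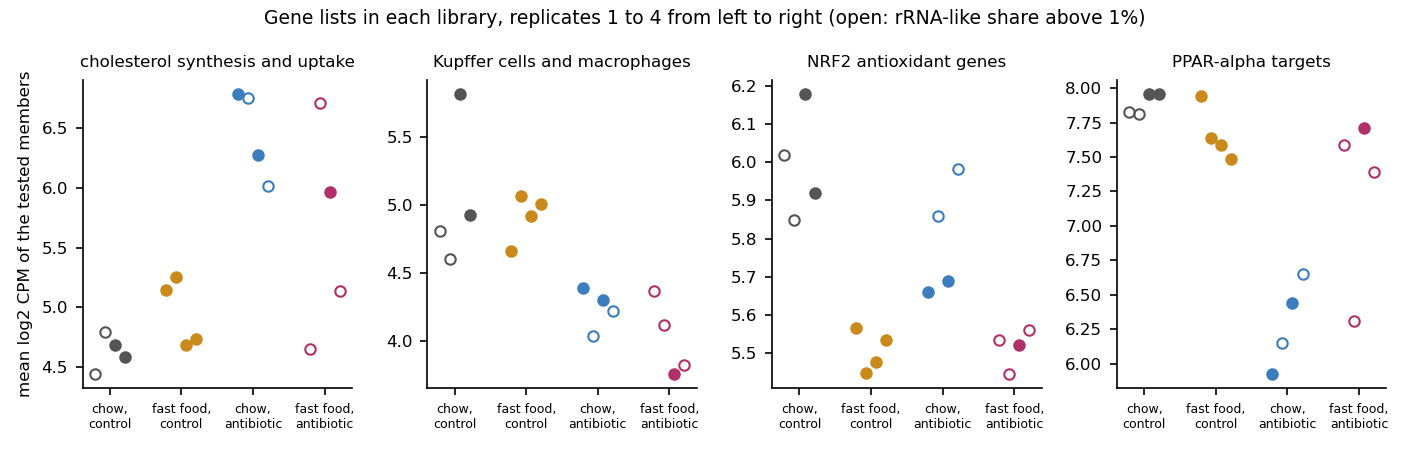
Mean log2 CPM of the tested members of 4 gene lists in each of the 16 libraries (replicates 1 to 4 from left to right, open symbols for libraries with an rRNA-like share above 1%). For the NRF2, Kupffer cell and PPAR-alpha lists all 4 fast food antibiotic libraries lie below all 4 chow control libraries. For the PPAR-alpha list the fast food antibiotic libraries range from 6.31 to 7.71 against 7.81 to 7.96 in chow control. For the cholesterol list they range from 4.65 to 6.71 against 4.44 to 4.79 in chow control.

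Fmo2 was among the 10 largest rises. Flavin monooxygenases, to which it belongs, oxidise nitrogen and sulfur compounds. In the choline and methyl group list, which holds Fmo2, 4 of 19 were called higher and 0 lower, against 4.00% of all genes called higher. Without fast food antibiotic 2, 2 were called higher. Fmo2 (chr1:162874317-162898726) rose from 40.8, 65.2, 68.5 and 62.0 CPM to 198, 463, 169 and 245 CPM (2.18 ± 0.27, edgeR adjusted p = 0.000946). Fmo1 (chr1:162829561-162866610), a neighbour of Fmo2 on chromosome 1, rose less, from 227, 197, 237 and 206 CPM to 259, 374, 306.4 and 275 CPM (0.49 ± 0.12, edgeR adjusted p = 0.0248). Both were without overlap. Fmo2 kept its call whichever library was left out, and Fmo1 lost it without fast food antibiotic 2 (edgeR adjusted p = 0.0595) and most without chow control 4 (0.0758). Dmgdh, which demethylates dimethylglycine, rose from between 400.0 and 496 CPM to between 481 and 1103 CPM (0.78 ± 0.20, edgeR adjusted p = 0.0291, with 0.0704 without fast food antibiotic 2 and 0.0953 without chow control 3).

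Genes of drug metabolism did not move as a block. Of 21 genes of the receptors CAR and PXR, 3 were called higher and 1 lower, against 4.00% and 3.73% of all genes. Without fast food antibiotic 2, 1 was called higher and 2 lower. Por, the electron donor of microsomal cytochromes P450, rose from 619, 674, 583 and 663 CPM to 1191, 1229, 895 and 824 CPM (0.70 ± 0.15, edgeR adjusted p = 0.0125), and missed its call only without chow control 3 (0.0505). Ugt2b35, a glucuronosyltransferase, fell from between 262 and 383 CPM to between 106 and 204 CPM (-1.04 ± 0.23, edgeR adjusted p = 0.0147, and 0.0562 without chow control 3). Sult1d1 (0.94 ± 0.25) and Cyp2c54 (0.85 ± 0.24) were called (edgeR adjusted p = 0.0337 and 0.042) but not without fast food antibiotic 2 (0.0913 and 0.109), and Cyp2c54 was at 0.116 without chow control 3.

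The main PXR target Cyp3a11 was 1623, 1896, 1465 and 1311 CPM in chow control and 879.6, 81.8, 635 and 351 CPM in fast food antibiotic. The groups did not overlap, yet the spread within the exposed group left an edgeR adjusted p of 0.0546 (-1.69 ± 0.50). It was -1.34 without fast food antibiotic 2, with an edgeR adjusted p of 0.0287. The CAR target Cyp2b10 was 0.496 to 2.20 CPM and 0 to 2.29 CPM, with no call (-0.25 ± 0.63, edgeR adjusted p = 0.846).

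The 10 largest rises under the naming rule included Cyp17a1, a steroid hydroxylase, and Cux2, a transcription factor found in female liver. Cyp17a1 was 44.9, 50.3, 78.5 and 51.4 CPM in chow control and 260.0, 100.5, 207 and 382 CPM in fast food antibiotic (2.07 ± 0.32, edgeR adjusted p = 0.00309). Here fast food antibiotic 2 was the lowest of its group, and without it the log2 fold change was 2.32 ± 0.24. Cux2 was 0.859, 3.37, 4.21 and 0.837 CPM and 8.66, 68.8, 4.49 and 24.99 CPM (3.47 ± 0.76, edgeR adjusted p = 0.0182, and 0.0627 without chow control 4). Its log2 fold change was 2.36 without fast food antibiotic 2, the highest library, and the lowest exposed library lay just above the highest control.

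Sult1e1, the oestrogen sulfotransferase, had the largest rise under the naming rule. It was 0, 0.549, 0.0991 and 0.523 CPM in chow control and 6.87, 35.5, 7.17 and 1.89 CPM in fast food antibiotic (5.33 ± 1.02, edgeR adjusted p = 0.0116, and 0.0515 without chow control 3), and the log2 fold change was 4.07 without fast food antibiotic 2. With controls this low the fitted size depends on the prior. Socs2, a feedback inhibitor of growth hormone signalling, rose from between 4.97 and 18.9 CPM to between 20.3 and 99.2 CPM (2.00 ± 0.52, edgeR adjusted p = 0.0333) but was not called without fast food antibiotic 2 (1.28, adjusted p = 0.0837) and had its highest value without chow control 4 (0.096). Igf1, the hormone that growth hormone induces in liver, was called (0.66 ± 0.18, edgeR adjusted p = 0.0378), and not without fast food antibiotic 2 (0.0948) or chow control 3 (0.124).

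The other large rises were in Slc22a26, an organic anion transporter (3.38 ± 0.83, edgeR adjusted p = 0.0272), Plppr1 (2.53 ± 0.65, 0.0317), the phosphatidate phosphatase Lpin1 (2.06 ± 0.47, 0.0206) and Acmsd, an enzyme of tryptophan breakdown (1.76 ± 0.37, 0.014). Slc22a26 was 0.537, 0.549, 0.843 and 0.732 CPM in chow control and 1.59, 22.8, 1.495 and 2.735 CPM in fast food antibiotic, and Plppr1 was 0.966, 2.75, 1.14 and 0.993 CPM and 3.48, 22.8, 3.56 and 3.68 CPM. Both were far higher in fast food antibiotic 2 than in the other exposed libraries, and without it their log2 fold changes were 1.47 and 1.29. Lpin1 was 125, 119, 162 and 196 CPM in chow control and 878, 1104, 284 and 241 CPM in fast food antibiotic, with libraries 1 and 2 well above 3 and 4. Acmsd was 13.3, 15.4, 10.3 and 18.8 CPM and 73.7, 19.8, 32.2 and 71.2 CPM, with library 2 the lowest of its group. Without fast food antibiotic 2 the edgeR adjusted p was 0.0411 for Slc22a26, 0.0595 for Plppr1, 0.0559 for Lpin1 and 0.00374 for Acmsd. Without chow control 3 it was 0.0848, 0.108, 0.066 and 0.0566, so all 4 then missed the threshold.

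The other large falls were in Serinc2 (-1.99 ± 0.34), Spon2 (-1.96 ± 0.38), Fam213b (-1.89 ± 0.25), the tight junction gene Tjp3 (-1.83 ± 0.28), the immunoproteasome subunit Psmb9 (-1.70 ± 0.34) and Klhdc7a (-1.67 ± 0.35). Their edgeR adjusted p-values ran from 0.0011 to 0.0134. Fam213b was 6.33, 6.32, 8.58 and 5.91 CPM in chow control and 1.79, 1.87, 1.70 and 1.98 CPM in fast food antibiotic, a narrow spread. Psmb9 was 6.01, 7.49, 21.2 and 11.3 CPM and 2.79, 2.66, 3.35 and 5.66 CPM, with chow control 3 again the highest. These 6 genes kept their call whichever library was left out.

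Among clock genes Per1 and Per2 rose. Per1 and Per2 encode the repressors that close the negative loop of the circadian clock, and both also respond to feeding and hormones. Of 19 clock genes, 3 were called higher and 0 lower, against 4.00% of all genes called higher, and 2 were called higher without fast food antibiotic 2. Per2 was 14.6, 11.9, 19.8 and 17.1 CPM in chow control and 37.6, 32.4, 39.8 and 36.5 CPM in fast food antibiotic (1.2 ± 0.17, edgeR adjusted p = 0.00161). The exposed libraries, number 2 included, lay within a narrow band above all controls. Per1 was 16.96, 25, 20.1 and 13.8 CPM and 45.0, 57.6, 33.8 and 38.7 CPM (1.21 ± 0.24, edgeR adjusted p = 0.00975), and both kept their call whichever library was left out.

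Cry1, their partner, was called (0.84 ± 0.21, edgeR adjusted p = 0.0254) with overlap, and not without fast food antibiotic 2 (0.0707) or chow control 3 (0.0763). Other core genes, Arntl (-0.80), Nr1d1 (-0.47), Dbp (-0.10) and Clock (-0.11), had edgeR adjusted p-values from 0.285 to 0.933. The time of day at which the livers were taken is not stated in the sources read here.

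Per1 is also a target of the glucocorticoid receptor, and 3 of 13 such targets were called higher (median 0.93), against 4.00% of all genes. The others were Zbtb16, a transcription factor (118, 141, 40.9 and 46.1 CPM against 20.6 to 38.1, 1.41 ± 0.34, edgeR adjusted p = 0.0237), and the receptor's chaperone Fkbp5 (295, 351, 209 and 145 CPM against 114 to 167, 0.85 ± 0.22, edgeR adjusted p = 0.0297). In both, libraries 1 and 2 were higher than 3 and 4. Without fast food antibiotic 2 the list's median was 0.02 and Per1 alone was called, with edgeR adjusted p-values of 0.061 for Zbtb16 and 0.0761 for Fkbp5. Without chow control 3 these were 0.0833 and 0.105. The acute phase list, which was highest in fast food antibiotic 2, held 0 called genes of 25 in edgeR, 1 in DESeq2 and 1 at an unadjusted p under 0.05. Its median moved from 0.25 to -0.82 without that library.

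Genes of amino acid breakdown and the urea cycle were called higher at 5 of 22 tested, against 4.00% of all genes, and lower at 0. Without fast food antibiotic 2, 5 were called higher. Got1, the cytosolic aspartate aminotransferase, rose from 219.7, 360.0, 285 and 409 CPM to 1046, 597, 583 and 928 CPM (1.31 ± 0.29, edgeR adjusted p = 0.0159, and 0.0604 without chow control 3). Otc, the urea cycle enzyme of mitochondria, rose from between 252 and 323 CPM to between 346 and 483 CPM (0.55 ± 0.12, edgeR adjusted p = 0.0139, and 0.0518 without chow control 3).

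Sds, serine dehydratase (0.83 ± 0.21, edgeR adjusted p = 0.0282), and Ass1, argininosuccinate synthase (0.63 ± 0.17, edgeR adjusted p = 0.0291), were called with overlap between the groups. Without chow control 3 their edgeR adjusted p-values were 0.0994 and 0.0942, and Sds was at 0.0578 without fast food antibiotic 2. The glutamate transporter Slc1a2, a marker of pericentral hepatocytes, rose from 188, 167, 185 and 178 CPM to 238, 326, 386 and 272 CPM (0.77 ± 0.13, edgeR adjusted p = 0.00367) and kept its call whichever library was left out. It was the 1 call among 15 pericentral genes (6.67%). Sds and Ass1 were the 2 calls among 15 periportal genes (13.3%), and of all genes tested 7.72% were called.

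Glucose and bile acid genes gave few calls. Pfkfb1, which sets the switch between glycolysis and gluconeogenesis, rose from 30.7, 30.4, 34.0 and 39.3 CPM to 65.0, 56.9, 56.2 and 57.1 CPM (0.80 ± 0.20, edgeR adjusted p = 0.0235, and 0.0716 without chow control 3). Ppargc1a, a coactivator of fasting metabolism, rose from between 11.6 and 17.9 CPM to between 20.2 and 50.0 CPM (1.28 ± 0.37, edgeR adjusted p = 0.0471, and 0.137 without chow control 4). Its call held in only 2 of the 8 fits that left out a library. Pfkfb1 and Ppargc1a were the 2 calls among 20 genes of the glucose list (10%), against 7.72% of all genes called. The other 18 did not pass, among them Pck1 (0.35 ± 0.39, edgeR adjusted p = 0.625) and G6pc (-0.46 ± 0.63, 0.7).

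Cyp7a1, which starts the main route from cholesterol to bile acids, was 187, 43.8, 358 and 28.6 CPM in chow control and 314, 73.8, 609.6 and 414 CPM in fast food antibiotic, a spread that left no call (1.19 ± 1.01, edgeR adjusted p = 0.5). Cyp8b1, which sets the share of cholic acid, was 413 to 514 CPM in chow control and 536, 21.03, 548 and 344 CPM in fast food antibiotic (-0.38 ± 0.65, edgeR adjusted p = 0.76). Cyp2c70, which makes the muricholic acids of mice, was 35.6, 53.6, 45.0 and 50.2 CPM and 90.8, 1287, 133 and 52.4 CPM (3.08 ± 0.82, edgeR adjusted p = 0.0393), and its log2 fold change was 1.00 without fast food antibiotic 2 (0.0494). Its call was lost in 4 of the 8 fits that left out a library, with the highest edgeR adjusted p without chow control 3 (0.117). Hsd17b4, a peroxisomal enzyme that shortens the bile acid side chain, fell from between 797 and 944 CPM to between 453 and 725 CPM (-0.54 ± 0.14, edgeR adjusted p = 0.0321, with 0.0993 without chow control 3 and 0.0658 without fast food antibiotic 2). The transporter gene Slco1a4 was called (1.06 ± 0.31, edgeR adjusted p = 0.0485) in 2 of those 8 fits only, with 0.135 without chow control 3.

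Single calls came from 2 further lists, cell cycle (1 of 16 tested, lower) and pancreas (1 of 2, higher). Of all genes, 3.73% were called lower and 4.00% higher. Ccnd1, which drives entry into the cell cycle, was 14.2, 10.1, 13.98 and 20.2 CPM in chow control and 10.2, 4.16, 4.54 and 8.58 CPM in fast food antibiotic (-1.11 ± 0.30, edgeR adjusted p = 0.0326), and it was not called without fast food antibiotic 2 (0.0753) or chow control 4 (0.112). Cela2a, a pancreatic elastase, was 0.429, 0.0687, 0.0991 and 0 CPM in chow control and 0, 10.9, 0.825 and 0.660 CPM in fast food antibiotic (4.70 ± 1.33, edgeR adjusted p = 0.0471), and it was not called without fast food antibiotic 2 (2.19, adjusted p = 0.158). Of the 10 listed pancreas genes, 2 had enough counts to be tested. Immediate early, unfolded protein, ATF4, heat shock, proteasome and aryl hydrocarbon receptor lists held 0 calls by edgeR, with 0, 3, 1, 2, 4 and 0 members at an unadjusted p under 0.05 and 0, 2, 0, 2, 0 and 0 called by DESeq2.

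Each exposure alone was set beside both together. These 3 comparisons share the 4 chow control libraries, so their values are listed and not correlated, and the test that bears on a difference is the interaction of meal and water. It was called at 519 of 13180 genes (3.94%) and at 22 of the 82 genes named by rule. Most of the 82 were named for a call between fast food antibiotic and chow control, whose libraries also enter the interaction. The 22 are therefore not to be read against the 3.94%. The interaction was fitted to all 16 libraries only, with fast food antibiotic 2 and chow antibiotic 4 included. Chow antibiotic 4 lay at -56.7 on the second principal component, against 19.4 to 22.2 in the rest of its group. How far the interaction calls rest on these libraries was not tested. In what follows the log2 fold changes are given for fast food control, chow antibiotic and fast food antibiotic in that order, each against chow control.

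**Figure D5:**
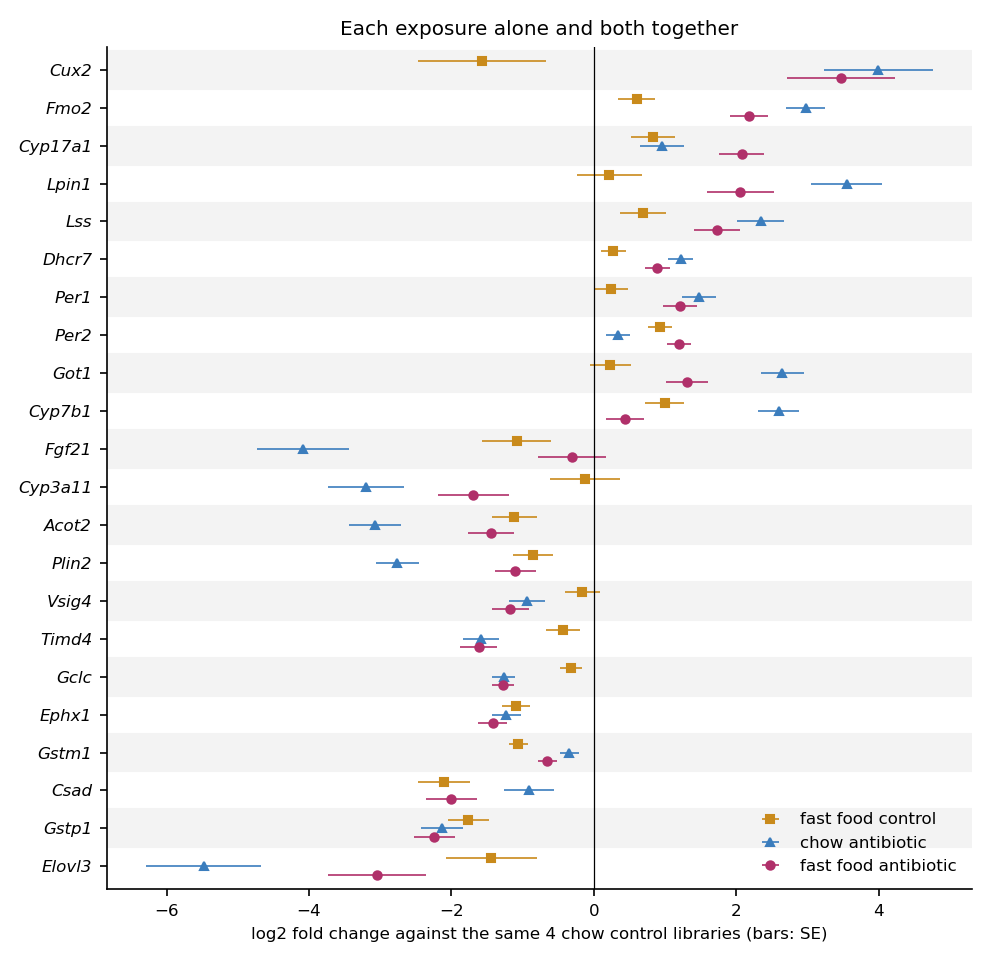
Log2 fold change of 22 genes against the same 4 chow control libraries for fast food control (squares), chow antibiotic (triangles) and fast food antibiotic (circles), with bars of 1 SE. For Fgf21 and Cyp7b1 the circle lies nearer 0 than the triangle, and for Gstp1, Gclc and Timd4 the circle and the triangle lie close together.

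For several genes the level with both exposures lay nearer baseline than with antibiotic water alone. Fgf21 was -1.08, -4.08 and -0.31 (interaction 4.86, edgeR adjusted p = 0.00732), and Cyp7b1, an oxysterol hydroxylase, was 1.00, 2.59 and 0.44 (interaction -3.15, edgeR adjusted p = 0.00199). Plin2 was -0.86, -2.76 and -1.10 (interaction 2.52, edgeR adjusted p = 0.00493) and Acot2 was -1.11, -3.08 and -1.44 (interaction 2.75, edgeR adjusted p = 0.00874).

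At other genes the value with both exposures fell short of the sum of the values with each. Gstp1 was -1.76, -2.14 and -2.24, with an interaction of 1.66 (edgeR adjusted p = 0.0322). Gstm1 was -1.06, -0.34 and -0.65 (interaction 0.75, edgeR adjusted p = 0.0308) and Otc was 0.69, 0.61 and 0.55 (interaction -0.75, edgeR adjusted p = 0.0235). For Gstm1 the value with both lay between those with each alone. Csad was -2.11, -0.91 and -2.0, with no call for the interaction (1.02, edgeR adjusted p = 0.255).

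For the Kupffer cell genes the values with fast food alone were small. Timd4 was -0.44, -1.58 and -1.62 (interaction edgeR adjusted p = 0.56) and Vsig4 was -0.16, -0.94 and -1.17 (0.932). In the cholesterol list, Lss was 0.69, 2.35 and 1.73 (0.111). Per2 was 0.93, 0.34 and 1.2 (0.893), and Cyp17a1 was 0.83, 0.96 and 2.07 (0.756). For these 5 genes the interaction was not called, which does not show that the exposures add.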

How the data were processed

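The authors deposited 1 table of raw read counts per gene for liver RNA of 16 libraries (mRNA kit, single reads of 50 bases, per the labels' protocols). Per the submitters' processing notes, FastQC, cutadapt, STAR, HTSeq, DESeq2 and edgeR were used with build GRCm38.p6; the sources used here state neither the annotation, nor the strand setting, nor how reads with several matches were treated, so near-identical copies (Gst, Cyp2c, H2, Saa families) and overlapping or antisense genes are uncertain. Of 25006 identifiers, 24942 matched a symbol in GENCODE M21. Libraries were grouped by their titles, and all columns of the table were used.

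From the counts, edgeR 4.0.16 (R 4.3.3) kept genes by filterByExpr (minimum count 10), scaled by TMM and fitted a quasi-likelihood model with 1 mean per group to all 16 libraries (common biological coefficient of variation 0.222). All 4 groups were kept so that they share an estimate of the spread. Tests are two-sided with Benjamini-Hochberg adjustment over 13180 genes and a threshold of 0.05. The SE is the fold change divided by the root of F. CPM are scaled by TMM. The method was tested on simulated counts.

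Genes were named by a rule. It took the 10 that rose most and the 10 that fell most among called genes whose groups did not overlap, with log2 CPM averaging 1 or more and without predicted or clone symbols, up to 4 called members of lowest p from each of 38 lists (579 of 585 genes in the table), and a panel of metabolic genes. Some genes that the rule takes are not reported here and are left out of the counts of named genes. The comparison, lists and rule were chosen with earlier results of these data known. Alternatives were DESeq2 1.42.0, RLE scaling, other filters, a fit to the 2 groups, a replicate block, leaving out libraries and 4 ways of handling the rRNA-like share, 2 of them (each side of a 1% share fitted alone) chosen after seeing the data. Genes of the mitochondrial genome were at a count of 0 throughout. Promoters are RefSeq entries for GRCm38.p6.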

Additional observations from a re-analysis of the deposited data

Results flagged for a closer look

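In 17 of the 164 groups of 4 libraries examined (82 named genes in the 2 groups), 1 library lay farther from the rest than Dixon's 95% limit allows. Chance gives about 1 in 20 for normally distributed values of genes not picked by those values. Most genes here were named for their values in the same libraries, and CPM were not log-transformed, so that rate is only a guide. Of these 17, 10 were fast food antibiotic 2. That library was far above its group at Cyp2c70 (1287 CPM), Saa1 (1398 CPM), Socs2 (99.2 CPM), Sult1e1 (35.5 CPM), Slc22a26 (22.8 CPM), Plppr1 (22.8 CPM) and Cela2a (10.9 CPM), and far below it at Cpt1a (739 CPM), Irf7 (7.32 CPM) and Serinc2 (1.72 CPM). Serum amyloid Saa1 and the acute phase list were also highest in that library, and the part of this in the other genes was not tested.

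The other libraries that stood out did so for few genes. In chow control they were replicate 2 at Saa1 (336 CPM), Gstp1 (571 CPM, low) and Plppr1 (2.75 CPM), replicate 3 at Fam213b (8.58 CPM) and replicate 4 at Scd1 (4553 CPM). In fast food antibiotic they were replicate 1 at Pfkfb1 (65.0 CPM) and replicate 3 at Ephx1 (229 CPM).

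The effect of the meal differed between the 2 kinds of water at 22 named genes, by edgeR's test of the interaction in all 16 libraries. Their adjusted p-values were 0.00199 for Cyp7b1, 0.00484 for Dmgdh, 0.00493 for Klhdc7a and for Plin2, 0.00732 for Fgf21, 0.00736 for Sult1d1 and 0.00874 for Acot2. They were 0.0121 for Cyp2c54, 0.0178 for Fam213b, 0.0235 for Otc, 0.0258 for Tjp3 and 0.0291 for Ccnd1. They were 0.0301 for Cry1, 0.0308 for Gstm1, 0.0311 for Slc22a7, 0.0322 for Gstp1, 0.0354 for Sult1e1 and 0.0391 for Acacb. They were 0.0423 for Got1, 0.0459 for Fmo2, 0.0463 for Serinc2 and 0.0488 for Elovl3. Acacb rose with both exposures (log2 fold change 0.77), while it was at -0.12 with fast food alone and -0.19 with antibiotic alone, neither of them called.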

How the results depend on the processing

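The count of 1018 called genes became 1667 by DESeq2 (887 higher, 780 lower) and 240 when only the 2 groups were fitted (117 and 123). It was 649 after adding the rRNA-like share as covariate (353 and 296). Dropping the 3 libraries highest in the acute phase transcript Saa1 gave 1652 (859 and 793). These were chow control 2 (336 CPM), chow antibiotic 4 (1198 CPM) and fast food antibiotic 2 (1398 CPM). With RLE scaling, other filters on low counts or without the rRNA-like features the count was between 806 and 1038. Without each library in turn it ran from 263 (112 higher, 151 lower, without chow control 3) to 1351, with 388 without chow control 4 (166 and 222) and 580 without fast food antibiotic 4. With the replicate block it was 876 (422 higher, 454 lower). Same-numbered libraries of the groups deviated together with correlations of 0.0424, 0.359, 0.0564 and 0.0136, not all over 0.1, so the numbers were not taken to pair the samples. Of the 4 fast food antibiotic libraries, replicate 2 correlated best with its own number and the other 3 did not, and under the block 8 of the 64 called named genes did not pass. Among libraries with a high rRNA-like share (2 chow control, 3 fast food antibiotic) edgeR called 0 of 12339 genes, with 974 at an unadjusted p under 0.05, and DESeq2 was not run there. Among those with a low share 578 were called, 71.8% of them higher against 51.8% with all libraries. That fit has 1 fast food antibiotic library, assumed to vary like the other groups. The cause of these differences was not tested. When only the 2 groups were fitted, 41 of the 62 called named genes with a value there did not pass. With the rRNA-like share as covariate 17 of 64 did not pass, and without chow control 3 it was 38 of 64. All 64 called named genes kept their direction in every alternative that gave them a value. Reversals were of genes with no call. Leaving out 1 library in turn gave log2 fold changes from -0.59 to 0.045 for Fgf21, -0.16 to 0.097 for Cpt1a, -1.20 to 0.46 for Scd1, -0.22 to 0.46 for Fasn, -0.66 to 0.0095 for Cyp8b1, -2.44 to 4.49 for Saa1 and -0.98 to 0.28 for Cyp2b10, the other sign arising without fast food antibiotic 2 for the first 6 of these and, for Scd1, also without chow control 4 (0.46). Without the 3 libraries highest in Saa1 it was 0.0038 for Fgf21, 0.088 for Cpt1a, 0.022 for Scd1, -0.19 for Fasn and 0.26 for Cyp2b10. Cyp2b10 took the other sign without chow control 2 (0.28) or fast food antibiotic 4 (0.13). With the covariate Scd1 was 0.23 and Srebf1 0.0035. In the low-share libraries Fgf21 was 0.015, Cpt1a 0.089, Scd1 0.68, Cyp8b1 0.18 and Hamp -0.15. Counts of 0 to a few reads limit Sult1e1, Cela2a, Ms4a1 and Cyp2b10.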

Other observations

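Of 12 genes listed for making peptides or loading them onto MHC class I molecules, 8 were called lower and 0 higher. Of all genes tested, 3.73% were called lower. Without fast food antibiotic 2, 5 of the 12 were called lower. This list and the 2 that follow were assembled after values were seen, so their counts are a description. Psmb8, an inducible subunit of the immunoproteasome, was 17.9, 13.7, 49.2 and 21.3 CPM in chow control and 8.46, 8.54, 9.69 and 10.3 CPM in fast food antibiotic (-1.47 ± 0.29, edgeR adjusted p = 0.0104). Tap2, a subunit of the peptide transporter, was 17.2, 15.9, 23.8 and 18.3 CPM and 9.05, 9.33, 10.8 and 11.2 CPM (-0.90 ± 0.15, edgeR adjusted p = 0.00372). The activator subunit Psme1 was 57.4, 46.1, 76.3 and 47.2 CPM and 28.3, 31.9, 33.7 and 30.6 CPM (-0.86 ± 0.15, edgeR adjusted p = 0.00436). In all 3 the exposed libraries lay within a narrow band below every control, and chow control 3 was the highest library. The light chain B2m (-0.44 ± 0.13, edgeR adjusted p = 0.054), H2-K1 (-0.47 ± 0.17, 0.0898) and H2-D1 (-0.57 ± 0.19, 0.0725) were not called. Nlrc5, also on the list, was not called either (0.00054 ± 0.19, edgeR adjusted p = 0.999) and was the 1 member without a negative sign.

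Genes known to differ between the sexes in mouse liver were listed next. Of 17 listed female-biased genes 8 had enough counts to be tested, and 5 of these were called higher, against 4.00% of all genes. Among the 5 were Cux2, Slc22a26, Cyp17a1 and the prolactin receptor gene Prlr (1.23 ± 0.29, edgeR adjusted p = 0.0213). The median log2 fold change of the 8 tested was 2.72, and without fast food antibiotic 2 it was 1.53 with 4 called. Genes low in chow control, such as Slc22a26 (0.537 to 0.843 CPM), can pass the count filter through groups where they are high. This count and median may therefore lean upward, and Cux2, Slc22a26 and Cyp17a1 were already among the largest rises. Prlr overlapped between the groups and was not called without that library (0.91, edgeR adjusted p = 0.0507). Of 12 male-biased genes 3 were called lower, Elovl3, Gstp1 and Cyp2d9, against 3.73% of all genes. Cyp2d9 was 1150.0, 1226, 1400.0 and 1808 CPM in chow control and 582, 366, 818 and 377 CPM in fast food antibiotic, without overlap (-1.38 ± 0.23, edgeR adjusted p = 0.00344). Other male-biased genes were not called, among them Cyp7b1 (0.44), Hsd3b5 (1.26) and Mup20 (-0.34). The Y-linked gene Ddx3y was at 127.6 to 229.7 CPM and Xist at no more than 1.42 CPM in all 16 libraries.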
